A study of Nicotiana tabacum with 9 samples.

Results

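Tobacco (Nicotiana tabacum) is an allotetraploid, a plant that carries the genomes of both its ancestral species, so many of its genes exist as pairs of similar copies. The genes described here are a pair for S-formylglutathione hydrolase and a pair for the ribosome biogenesis protein BRX1. They are 4 of the 69500 genes in the deposited table. Of each pair, 1 copy carries an identifier of scaffold Nitab4.5_0000826, and the other copy an identifier of scaffold Nitab4.5_0001618. The copies on scaffold Nitab4.5_0000826 were chosen by the deposited signal itself: they were expressed in the material labelled K326 and near 0 in the materials labelled Y and KY. The copies on scaffold Nitab4.5_0001618 were chosen because the table gives them the same description terms. Levels of these 4 genes in the 3 materials are therefore given as descriptions, without p-values.

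S-formylglutathione hydrolase is an enzyme of formaldehyde detoxification. Formaldehyde binds glutathione, a class III alcohol dehydrogenase oxidises the adduct to S-formylglutathione, and the hydrolase splits this into formate and free glutathione. The formate can be oxidised further or enter folate-dependent one-carbon metabolism. BRX1 belongs to the Brix-domain family of nucleolar proteins. In yeast, Brx1 is required for assembly of the large ribosomal subunit.

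The 9 libraries were made from leaf RNA, 3 each from K326, Y and KY. K326 is a flue-cured tobacco cultivar, and the labels give Y and KY only as genotype names, with no treatment, leaf position or age. The labels number the libraries of a material 1 to 3 and do not say that these came from separate plants, so p-values measure only the spread between libraries, which may be technical. The deposited expression signal summed to 551496 to 603165 per library, its unit is not named, and read depth is unknown. Leaf markers were present: 13 of 14 Rubisco small subunit genes were detected and together reached 53817 to 78371 per library. Pearson correlations across 16348 tested genes were 0.899 to 0.964 within a material and 0.897 to 0.954 between materials. The highest between materials was that of KY replicate 1 with K326 replicate 3, and KY replicate 1 correlated at only 0.899 with KY replicate 2. The pair sums are also given without these libraries.

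The S-formylglutathione hydrolase copy on scaffold Nitab4.5_0000826, Nitab4.5_0000826g0060, was expressed in K326 and listed at 0 elsewhere. Its signal was 13.5, 11.9 and 15.6 in K326 replicates 1 to 3, a mean of 13.7 ± 1.88 (SD, n = 3). Each of the 3 Y libraries and each of the 3 KY libraries listed it at 0. The groups did not overlap, and a fold cannot be given against a listed 0. A listed 0 does not show whether the gene was missing from the plants, not transcribed, or present in a form whose reads were assigned elsewhere, and none of these was tested.

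The other copy of this enzyme, Nitab4.5_0001618g0150, was expressed in all 9 libraries and varied widely within each material. Its signal was 5.62, 1.53 and 9.64 in K326 replicates 1 to 3, a mean of 5.60 ± 4.06 (SD, n = 3). In Y it was 2.33, 4.56 and 14.3 (mean 7.05 ± 6.34), and in KY 11.3, 4.16 and 7.74 (mean 7.72 ± 3.56). The 3 materials overlapped fully in range, with a high library in each (K326 replicate 3, Y replicate 3 and KY replicate 1). The coefficient of variation was 72.5% in K326, 89.9% in Y and 46.0% in KY. In K326 that of the copy on scaffold Nitab4.5_0000826 was 13.7%. The difference in log2(signal + 1) from K326 was 0.22 in Y and 0.54 in KY, and KY exceeded Y by 0.32, each with a standard error of 0.65. The order of the means was KY, Y, K326, and no neighbours in that order differed beyond their spread. Leaving out 1 library at a time changed the sign of all 3 differences, which then ranged from -0.39 to 0.71, from -0.03 to 1.00 and from -0.17 to 0.93.

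BRX1 showed the same division between copies. Nitab4.5_0000826g0070 had a signal of 19.6, 14.5 and 17.3 in K326 replicates 1 to 3, a mean of 17.1 ± 2.53 (SD, n = 3). In Y it was 0, 0.06 and 0, and in KY 0.05, 0.06 and 0.04. Every K326 library stood far above every Y and KY library, and Y and KY overlapped. The difference in log2(signal + 1) was -4.14 for Y minus K326 and -4.10 for KY minus K326, each with a standard error of 0.16. This scale understates differences that end near 0.

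The BRX1 copy on scaffold Nitab4.5_0001618, Nitab4.5_0001618g0180, was expressed in every library and stood higher in Y and KY than in K326. Its signal was 11.01, 8.11 and 10.6 in K326 replicates 1 to 3 (mean 9.91 ± 1.57; SD, n = 3). It was 13.7, 19.1 and 11.5 in Y (mean 14.8 ± 3.91) and 20.9, 16.6 and 12.3 in KY (mean 16.6 ± 4.30). The lowest Y library, replicate 3 at 11.5, was only just above the highest K326 library, replicate 1 at 11.01. No Y or KY library overlapped K326, and Y and KY overlapped each other. The difference in log2(signal + 1) from K326 was 0.52 in Y and 0.67 in KY, and KY exceeded Y by 0.15, each with a standard error of 0.24. KY had the highest mean, then Y, then K326, and KY and Y did not differ beyond their spread; without KY replicate 1 their difference was -0.02.

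All 4 genes passed the filter on low values, and both copies on scaffold Nitab4.5_0000826 did so through K326 alone. Under the rule used for other genes below (limma, Benjamini-Hochberg adjusted p below 0.05), both copies on scaffold Nitab4.5_0000826 were called lower and neither copy on scaffold Nitab4.5_0001618 was called, in Y and again in KY against K326. Of all 16348 tested genes, 1.99% were called in either direction in Y and 0.789% in KY, and 1.21% and 0.557% were called lower. Between KY and Y none of the 4 genes was called, against 1.3% of all tested genes (0.483% higher and 0.814% lower). These contrasts chose the genes, so nothing is read from the counts, and Y and KY share the same K326 libraries.

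**Figure D1:**
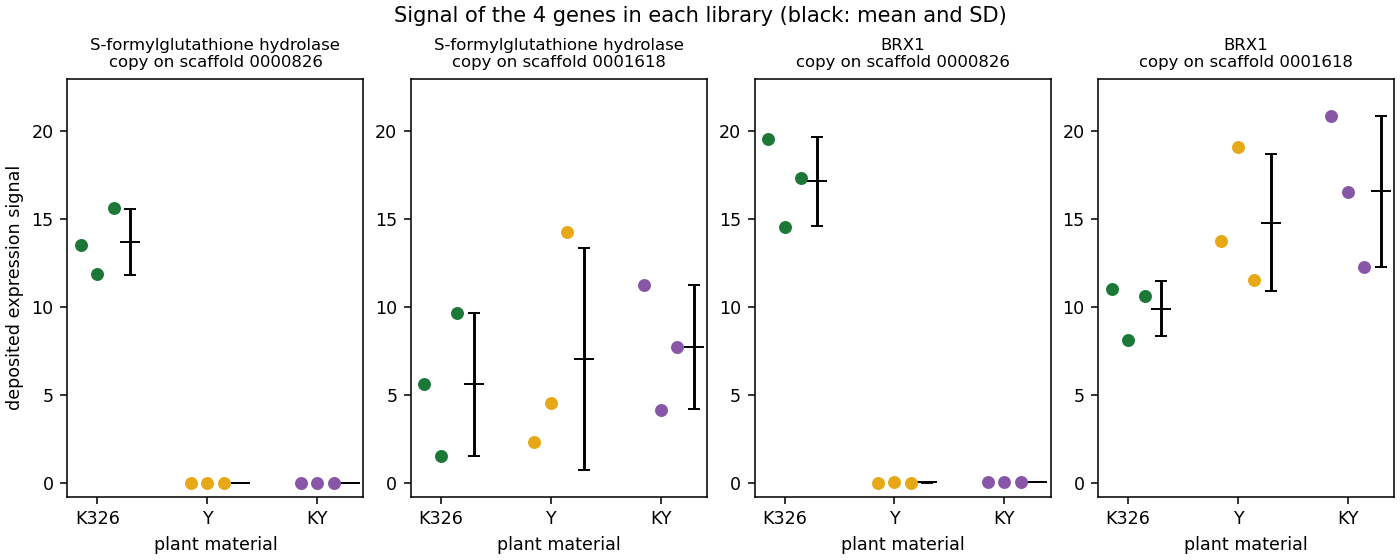
Deposited expression signal (vertical axis) of the 4 genes in each library, by plant material (horizontal axis); points are libraries in replicate order 1 to 3, and black marks show the mean and SD of each material. The copies on scaffold Nitab4.5_0000826 lie between 11.9 and 19.6 in K326 and at 0 to 0.06 in Y and KY, and the copies on scaffold Nitab4.5_0001618 are expressed in all 9 libraries.

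Adding the copies of a pair shows how much signal for each protein remained in Y and KY. Each sum holds a copy chosen as near 0 in Y and KY, so a lower sum there follows in part from that choice. For BRX1, the pair summed to 30.6, 22.6 and 27.9 in K326 replicates 1 to 3 (mean 27.1 ± 4.04; SD, n = 3). It summed to 13.7, 19.2 and 11.5 in Y (mean 14.8 ± 3.94) and to 20.9, 16.6 and 12.3 in KY (mean 16.6 ± 4.30). The sums in K326 did not overlap those in Y or KY. The copy on scaffold Nitab4.5_0001618 was higher in Y and KY by less than the other was lower. The ratio of means was 0.548 for Y to K326 and 0.615 for KY to K326. On the log2(sum + 1) scale the difference was -0.84 in Y and -0.69 in KY, with a standard error of 0.24. KY and Y differed by 0.16 on that scale, within the standard error of 0.24. Without KY replicate 1 and K326 replicate 3, the differences from K326 were -0.82 and -0.83. Under median-of-ratios scaling, which moved the median difference over all tested genes from -0.14 to 0.02 in KY, that of the BRX1 sum in KY was -0.49.

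For S-formylglutathione hydrolase, the pair summed to 19.1, 13.4 and 25.3 in K326 replicates 1 to 3 (mean 19.3 ± 5.93; SD, n = 3). In Y and KY the sum was the signal of the copy on scaffold Nitab4.5_0001618 alone, 7.05 ± 6.34 and 7.72 ± 3.56. The KY sums all lay below the K326 sums, whereas Y replicate 3 at 14.3 lay above K326 replicate 2 at 13.4. The ratio of means was 0.365 for Y to K326 and 0.401 for KY to K326. On the log2(sum + 1) scale the difference was -1.59 in Y and -1.26 in KY, with a standard error of 0.54, and KY minus Y was 0.32. It stayed below 0 when any 1 library was left out, with a range of -2.19 to -1.10 in Y and of -1.55 to -0.93 in KY. Without KY replicate 1 and K326 replicate 3 together, it was -1.38 in Y and -1.34 in KY. The sum holds the copy chosen as near 0 in Y and KY, so its staying below 0 follows in part from that choice.

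In K326, the copy on scaffold Nitab4.5_0000826 was the larger part of both pairs. It gave 64.0%, 64.2% and 62.0% of the BRX1 sum in replicates 1 to 3, a mean of 63.4% ± 1.18 (SD, n = 3). For S-formylglutathione hydrolase its share was 70.6%, 88.6% and 61.9%, a mean of 73.7% ± 13.6. The BRX1 share was thus nearly the same in the 3 libraries, while the hydrolase share moved with the variable copy on scaffold Nitab4.5_0001618. In Y and KY the copy on scaffold Nitab4.5_0000826 gave at most 0.361% of the BRX1 sum. Whether the deposited signal is scaled by gene length is not stated, nor is the way in which reads that match both copies were assigned. Shares and sums carry both limits. The copies were paired by description only, and their sequences were not compared.

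**Figure D2:**
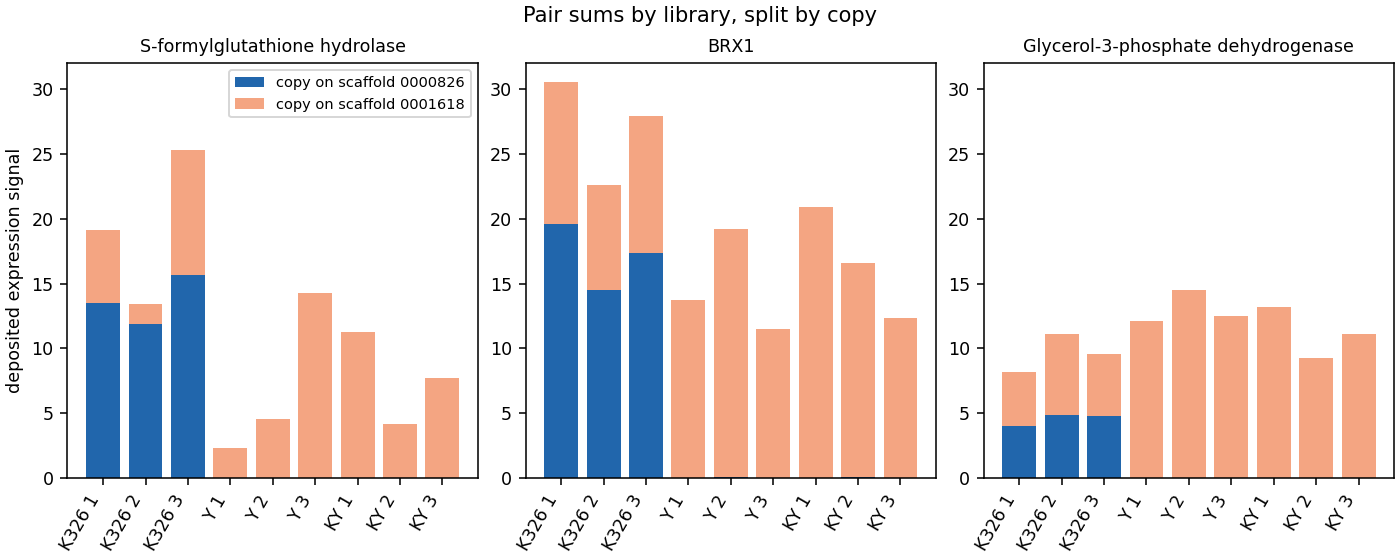
Stacked deposited signal (vertical axis) of the copies on scaffold Nitab4.5_0000826 and scaffold Nitab4.5_0001618 in each library (horizontal axis; no error bars, since each bar is 1 library), for S-formylglutathione hydrolase, BRX1 and, for comparison, the glycerol-3-phosphate dehydrogenase pair of the same scaffolds. The copy on scaffold Nitab4.5_0000826 is visible only in K326; the BRX1 sum is lower in Y and KY, while the glycerol-3-phosphate dehydrogenase sum has means of 9.63, 13.1 and 11.2 in K326, Y and KY.

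No further gene of these names made up the difference. The table describes 1 more gene as S-formylglutathione hydrolase, Nitab4.5_0000636g0050, which was at 0.05 in K326 replicate 1 and listed at 0 in the other 8 libraries. It also describes 1 more gene as BRX1, Nitab4.5_0000677g0140, listed at 0 in all 9 libraries. With these added, the hydrolase sum had means of 19.3, 7.05 and 7.72 in K326, Y and KY, and the BRX1 sum did not change.

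The neighbours of the 4 genes, were taken by identifier alone. Scaffold Nitab4.5_0000826 lists 29 further genes, of which 8 were at 0 in all 9 libraries. In 12 of the 29, every K326 library stood above every Y and KY library, and in 0 the reverse held. Over the whole table, 2.96% of the 43785 genes above 0 in some library showed the first pattern and 0.788% the reverse. Of the 14 neighbours above 0 in every K326 library, 9 were listed at 0 in all Y and KY libraries, as were 0.369% of all such genes in the table. The 29 neighbours together had a signal of 34.3, 34.9 and 35.0 in K326 replicates 1 to 3, at most 2.02 in a Y library and at most 0.81 in a KY library. No single value of a neighbour in Y or KY was above 0.85. The scaffold was reached through genes chosen for this pattern, so these counts describe its extent only.

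Of the neighbours on scaffold Nitab4.5_0000826, 4 passed the filter on low values. A gene described as Unknown, Nitab4.5_0000826g0210, had 9.78, 12.1 and 11.4 in K326 replicates 1 to 3 and a listed 0 in the 6 other libraries. The gene for Nup93/Nic96, a structural component of the nuclear pore, Nitab4.5_0000826g0280, had 7.25, 7.32 and 6.72 in K326, at most 0.09 in Y and at most 0.08 in KY. A glycerol-3-phosphate dehydrogenase gene, Nitab4.5_0000826g0200, whose enzyme links glycolysis to glycerolipid synthesis, had 4.06, 4.85 and 4.79 in K326 but was at a listed 0 in Y and KY. A triose-phosphate transporter domain gene, Nitab4.5_0000826g0190, likewise went from 2.95, 3.61 and 3.65 in K326 to a listed 0. None of the 4 had overlapping groups between K326 and the other materials. The other 25 did not pass this filter, which a gene at 0 in Y and KY could pass only with a high K326 mean. By limma all 4 were called lower in Y and in KY, beside 1.21% and 0.557% of all tested genes. With a pseudocount of 0.1 the transporter gene lost its call in KY (limma adjusted p = 0.0664). The 4 were chosen after their values were seen, and passing the filter through K326 alone meant that they had to differ. Nothing is therefore read from their calls. Of low neighbours, a DnaJ-domain gene had a mean of 1.46 in K326 against a listed 0 in Y and KY. The folylpolyglutamate synthase gene of the scaffold, Nitab4.5_0000826g0240, whose enzyme adds the glutamate tail to folates, was at 0.02 in KY replicate 2 and listed at 0 in the other 8 libraries.

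**Figure D3:**
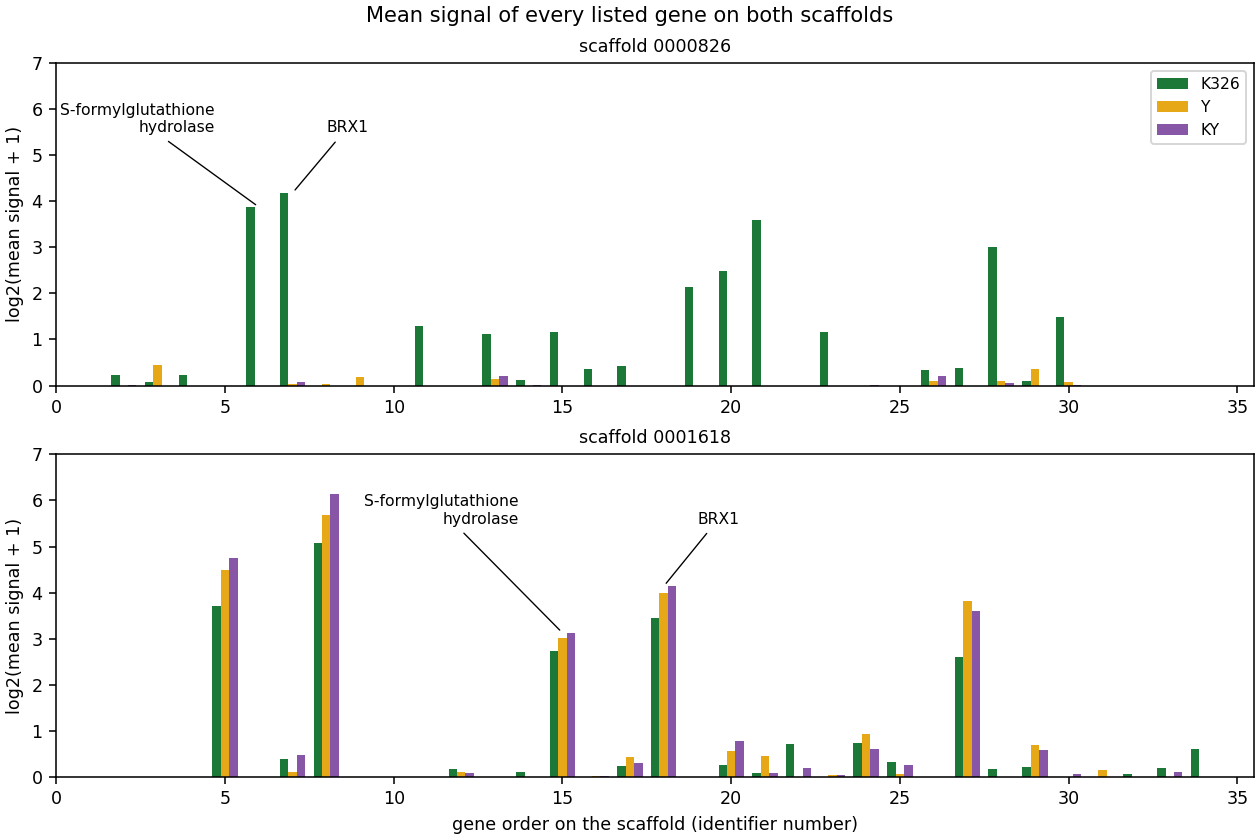
Mean deposited signal of every listed gene on scaffold Nitab4.5_0000826 (top) and scaffold Nitab4.5_0001618 (bottom), as log2(mean signal + 1) of 3 libraries (vertical axis; no error bars), in identifier order (horizontal axis), with K326, Y and KY as coloured bars. On scaffold Nitab4.5_0000826 no gene reaches a mean of 1 in Y or KY, and on scaffold Nitab4.5_0001618 the well-expressed genes have signal in all 3 materials.

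The genes on scaffold Nitab4.5_0001618 with the most signal had it in all 3 materials. Its 32 further genes include 11 at 0 in all 9 libraries, and 3 had a mean of at least 1 in each material. In 0 of the 32 did every K326 library stand above every Y and KY library, and in 3 the reverse held. Of the 32, 21 were above 0 in some library. Over the whole table, 2.96% of the 43785 such genes showed the first pattern and 0.788% the reverse. Of the 3, 1 was described as Unknown and stood near 0, with means of 0.15, 0.617 and 0.507 in K326, Y and KY. Both scaffolds list genes in similar company: of 25 described genes on each, 16 pairs had identical description terms, used once per scaffold. Walking along scaffold Nitab4.5_0000826, 10 of the 15 steps between successive pairs ran in the same order on scaffold Nitab4.5_0001618. The hydrolase gene precedes the BRX1 gene on both. This matching was added after the values were seen. No share for other scaffolds or for a random order was computed, so the matching and the order are descriptions only.

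The 3 tested neighbours on scaffold Nitab4.5_0001618 had higher means in Y and KY than in K326, and 2 of them were called in 1 contrast each. The glycerol-3-phosphate dehydrogenase copy Nitab4.5_0001618g0270 had 4.11, 6.30 and 4.78 in K326, 12.1, 14.5 and 12.5 in Y and 13.2, 9.24 and 11.1 in KY. It rose in Y (log2 difference 1.23, SE 0.19, limma adjusted p = 0.0117) and missed the threshold in KY (1.01, SE 0.19, limma adjusted p = 0.0578). A gene with an RNA recognition motif and a CCCH zinc finger, Nitab4.5_0001618g0050, had 13.0, 11.6 and 11.9 in K326, 19.3, 17.2 and 28.2 in Y and 24.7, 27.7 and 25.9 in KY. Its groups did not overlap with K326 in either material. It rose in KY (log2 difference 1.04, SE 0.19, limma adjusted p = 0.0496) and missed the threshold in Y (0.75, SE 0.19, limma adjusted p = 0.118). The ataxin-2 C-terminal domain gene Nitab4.5_0001618g0080 overlapped between materials and was not called (means 33.0, 50.6 and 69.1 in K326, Y and KY). Of all tested genes, 0.777% were called higher in Y and 0.232% in KY. No neighbour on either scaffold was called between KY and Y. The rise of Nitab4.5_0001618g0270 did not pass when K326 replicate 1, K326 replicate 3 or Y replicate 2 was left out (adjusted p of limma between 0.0596 and 0.0613). That of Nitab4.5_0001618g0050 passed only when the library left out was Y replicate 3 or KY replicate 1 (otherwise, adjusted p of limma between 0.0574 and 0.219).

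Pairs of the same scaffolds differed in what remained. Of the 16 pairs, 7 had a summed mean of at least 1 in some material. In 4 of these, BRX1 among them, the sum in K326 stood above that in every Y and KY library. The sums hold copies of a scaffold reached through genes chosen for this pattern, and no share over other pairs was computed. The count therefore describes these pairs only. The triose-phosphate transporter pair summed to 3.64 in K326, 0.043 in Y and 0.19 in KY. Its copy on scaffold Nitab4.5_0001618 was low in all 9 libraries. The DnaJ-domain pair likewise summed to 1.46, 0.017 and 0.013. For the pair described by an IQ motif and DUF4005, the means of the sum were 1.92, 0.913 and 0.527. The glycerol-3-phosphate dehydrogenase pair went the other way, with sums of 8.17, 11.2 and 9.57 in K326, 12.1, 14.5 and 12.5 in Y and 13.2, 9.24 and 11.1 in KY. Its sums overlapped between KY and K326 and were higher in Y than in K326.

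A list of 50 other genes was matched by description to formaldehyde and glyoxal terms, and 24 of them were tested. Of the 24, 23 were matched by a glyoxalase domain and 1 by class III alcohol dehydrogenase. Only that 1 belongs to the formaldehyde steps given above, so the list as a whole does not test that pathway. By limma 0 of the 24 were called in Y or KY against K326, or between KY and Y, where 1.99%, 0.789% and 1.3% of all tested genes were called. With so few genes, 0 calls are near that background. At an unadjusted p below 0.05, 0 were higher and 2 lower in Y, 0 and 0 in KY, and 3 and 3 for KY minus Y. Over all 16348 tested genes these counts were 707 and 1338, 373 and 1492, and 693 and 1465. The only tested gene for class III alcohol dehydrogenase, which makes the substrate of the hydrolase, was Nitab4.5_0000392g0070. Its signal was 85.3, 86.4 and 90.0 in K326 replicates 1 to 3, 68.7, 69.6 and 91.9 in Y, and 84.8, 81.3 and 87.3 in KY. The materials overlapped, and the log2 difference was -0.20 in Y (limma adjusted p = 0.628) and -0.05 in KY (limma adjusted p = 0.916), both with a standard error of 0.15. No description matched formate dehydrogenase. The median difference of the list was 0.07 in Y and -0.09 in KY, beside -0.08 and -0.14 over all tested genes; under median-of-ratios scaling it was 0.19 and 0.09, so the sign in KY turned. The median in Y also rested on single libraries: it was -0.04 without Y replicate 3, 0.00 without K326 replicate 3 and 0.18 without Y replicate 2.

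Ribosome assembly, in which BRX1 acts, was followed in a list of 192 other genes matched by description, with 66 tested. The match is wider than the process of BRX1: tested genes include some described as small nuclear ribonucleoprotein Prp31 and 1 as RimM. In Y, 56 of the 66 had a difference below 0 and the median was -0.28, beside -0.08 over all tested genes, of which 9810 were below 0. In KY, 53 were below 0 with a median of -0.12, beside -0.14 over all tested genes, of which 11346 were below 0. Under median-of-ratios scaling, where the median over all tested genes was 0.02 in both, that of the list was -0.18 in Y, with 51 below 0, and 0.01 in KY, with 30 below 0, so the sign in KY turned. For KY minus Y the median was 0.14, beside -0.05. Without KY replicate 1 it was -0.01, with 32 above 0 and 34 below, so this direction rested on that library. The median in KY against K326 was then -0.34, and it was -0.04 without KY replicate 3 and -0.06 without K326 replicate 1. Without K326 replicate 2 it was -0.23. The median in Y was -0.43 without Y replicate 2. In Y 1 of the 66 rose and 1 fell, near the 1.99% called over all tested genes. In KY against K326 limma called 0, where 0.789% of all tested genes were called, and at an unadjusted p below 0.05 it had 0 higher and 2 lower. The gene that fell, Nitab4.5_0005311g0010, is described by a Brix domain alone. Its signal was 7.25, 4.68 and 5.97 in K326, 1.92, 1.99 and 1.21 in Y, and 2.83, 1.17 and 1.72 in KY. Both materials lay below K326 without overlap, with a log2 difference of -1.36 in Y (limma adjusted p = 0.0278) and -1.28 in KY (limma adjusted p = 0.0666), both with a standard error of 0.25. The call in Y was lost when any 1 library other than KY replicate 1 or 2 was left out (limma adjusted p from 0.0550 to 0.123). In KY it was gained without KY replicate 1 (0.0198). The gene that rose, Nitab4.5_0000680g0160, described as a GTP-binding protein of the YsxC type, acts in bacteria in ribosome assembly. It had 8.66, 5.83 and 4.85 in Y replicates 1 to 3, against a listed 0 in K326 and KY. It passed the filter on low values through Y alone, so it had to differ, and nothing is read from its call against K326 or from its call between KY and Y, the only one of the list there.

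Of the 11 other Brix-domain genes, 7 were tested, and all 7 had a difference below 0 in Y and 5 in KY. Of all 16348 tested genes, 9810 were below 0 in Y and 11346 in KY, so 5 of 7 in KY is near that share. Median-of-ratios scaling did not change the Brix-domain counts, while 7668 and 7641 of 16235 tested genes were then below 0. The highest of the 7, Nitab4.5_0000132g0170, had 44.9, 31.8 and 39.0 in K326, 29.8, 47.8 and 25.2 in Y, and 38.1, 28.3 and 22.2 in KY, and its groups overlapped. Another, Nitab4.5_0002715g0140, had means of 3.96, 2.86 and 1.37 in K326, Y and KY, with a log2 difference of -1.07 in KY (standard error 0.22, limma adjusted p = 0.0800). The 11 genes summed to 46.6 to 72.3 in K326, 36.0 to 61.0 in Y and 31.7 to 58.8 in KY, ranges that overlapped. The 6 tested NOP5-domain genes, which belong to the small nucleolar ribonucleoprotein core, had a median of -0.72 in Y and -0.12 in KY, with none called. Their sign in KY turned under median-of-ratios scaling (0.06). Other parts of the list moved less in Y. The 10 tested H/ACA genes had medians of -0.32 in Y and -0.25 in KY, with 2 above 0 in Y. The 14 tested Utp genes had medians of -0.19 and -0.15, with 4 above 0 in Y, and none of either part was called. The summed signal of markers of dividing cells (histones, cyclins and MCM proteins) was lower in Y than in K326 without overlap. Of the 105 tested markers, limma called 5 lower and 1 higher in Y, beside 1.21% and 0.777% of all tested genes. In KY against K326 it called 0, beside 0.789%. For KY minus Y it called 3 higher and 0 lower, beside 0.483% and 0.814%. The 237 marker genes, 33 of them at 0 throughout, summed to 2303 to 4387 in K326, 1227 to 1882 in Y and 1133 to 3159 in KY, with K326 replicate 3 and KY replicate 1 highest. Their part in the BRX1 and ribosome assembly values was not tested, and in bulk leaf fewer cells of a type and less RNA per cell cannot be told apart. The 287 leaf markers, 62 of them at 0, summed to 146457 to 181892 in K326, 155163 to 187205 in Y and 173400 to 206924 in KY. A lower sum in Y was not particular to markers of dividing cells. Markers of other organs summed to 4303 to 4455 in Y and 4715 to 5211 in K326, also without overlap.

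**Figure D4:**
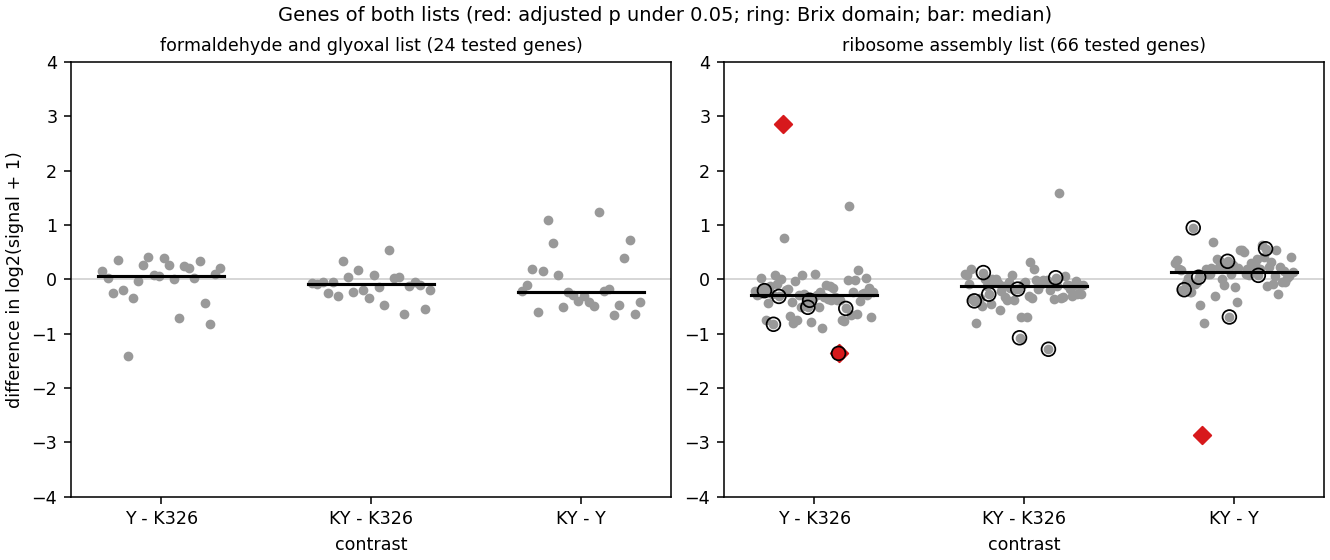
Difference in log2(signal + 1) (vertical axis) of each tested gene in the formaldehyde and glyoxal list (24 genes) and the ribosome assembly list (66 genes), by contrast (horizontal axis: Y or KY against K326, and KY against Y); red diamonds passed limma at an adjusted p below 0.05, rings mark Brix-domain genes, bars are medians, and the 4 genes of the pairs are left out. Most ribosome assembly genes lie below 0 in Y, with a median of -0.28 (-0.18 under median-of-ratios scaling), and 2 are called there; no gene of the other list is called.

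Genes most like each of the 4 were taken by Pearson's r of log2(signal + 1) over the 9 libraries, as a description of shared pattern. For Nitab4.5_0000826g0060 the closest was the magnesium chelatase ChlI-subunit gene Nitab4.5_0000733g0210 (r = 0.9998), with means of 31.9, 0.013 and 0.043 in K326, Y and KY. Next came the B3 DNA-binding domain gene Nitab4.5_0000733g0200 (r = 0.9997) and the CRAL-TRIO gene Nitab4.5_0000976g0100 (r = 0.9996). For Nitab4.5_0000826g0070 they were a HIT-type zinc finger gene, Nitab4.5_0001740g0070 (r = 0.9998), a cytochrome b5 gene, Nitab4.5_0003151g0070 (r = 0.9997), and the same CRAL-TRIO gene (r = 0.9995). Such values mainly reflect a shared split of 3 libraries with signal against 6 near 0. The copies on scaffold Nitab4.5_0000826 correlated with each other at 0.9988, and the copies on scaffold Nitab4.5_0001618 at 0.2482. The closest gene to Nitab4.5_0001618g0150 encodes cytochrome c1 of the mitochondrial respiratory chain, Nitab4.5_0000620g0110 (r = 0.9691), with means of 59.5, 62.5 and 63.4 in K326, Y and KY. The closest to Nitab4.5_0001618g0180 encodes the RNA polymerase subunit RPB5, Nitab4.5_0008307g0010 (r = 0.9201), with means of 10.5, 17.5 and 20.0.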

How the data were processed

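Leaf RNA of 9 tobacco libraries was extracted with TRIzol, treated with DNase and prepared with a TruSeq kit for paired-end sequencing, per the labels' protocols. HISAT2, StringTie and RSEM are named, without role or order, per the submitters' processing notes, while the genome build is not given in the sources used here. Expression signal was deposited by the authors as 1 table of genes by libraries, with no negative value and no unit named in the header. The authors' mean columns matched the library means within 3.33e-06 and were not used further.

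Values were transformed as log2(value + 1), and the 16348 genes averaging at least 1 across all libraries were fitted in 1 model with limma 3.58.1 (R 4.3.3, mean-variance trend, Benjamini-Hochberg adjustment over all tested genes). Standard errors of sums used the prior variance of that fit at the same level. The fit was tested on simulated data for Y minus K326 (16348 genes, 200 changed). The changed genes were drawn only from those with a mean log2(value + 1) above 3. The fit recovered 41 of 100 genes changed by 1 log2 unit and 93 of 100 changed by 3, with 11 false calls. Recovery of changes in lower genes was not simulated.

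Alternatives were a pseudocount of 0.1, median-of-ratios scaling, quantile normalization, no filter or a mean of at least 5, only the 2 materials compared, a replicate block, and leaving out each library. Leaving out KY replicate 1 and K326 replicate 3 together was added after seeing the data. The 4 genes and all lists were chosen with earlier results of these data known. Named genes are the 4 members, tested neighbours within 5 identifiers (none), called list genes, same-name genes and the 3 most correlated genes with a description, of which the closest are given for the copies on scaffold Nitab4.5_0001618. The neighbours on both scaffolds, the pairs beside the members, the class III alcohol dehydrogenase gene and the uncalled Brix-domain genes fall outside this rule and were named after their values were seen. A marker list for other organs (477 genes, 196 at 0) mostly held lipid-transfer domains and summed to 4715 to 5211 in K326, 4303 to 4455 in Y and 3513 to 5041 in KY. A reference table of 79372 tobacco genes had 0 identifiers in common with the deposited one, and no coordinates are given.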

Additional observations from a re-analysis of the deposited data

How the results depend on the processing

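Read depth is unknown, which limits what a listed 0 can show. With a pseudocount of 0.1, the log2 difference of Nitab4.5_0000826g0070 was -7.19 in Y and -6.84 in KY, by construction of that scale. Nitab4.5_0000826g0060, listed at 0 in Y and KY, was compared by its mean signal only, and not under that pseudocount or quantile normalization. Where compared, the other levels of the 4 genes and their sums moved by less than the spread between replicates. The 4 neighbours called lower on scaffold Nitab4.5_0000826 became 7 without a filter on low values and 0 with a mean of at least 5, for Y and for KY, as the filter sets how many are tested, and 3 to 4 when 1 library was left out. On scaffold Nitab4.5_0001618, the 1 gene called higher in Y became 0 with a replicate block, and 0 to 1 when 1 library was left out. The 1 called higher in KY became 2 under median-of-ratios scaling or quantile normalization, 0 with a pseudocount of 0.1, no filter, a replicate block or without KY replicate 1 and K326 replicate 3, and 0 to 2 when 1 library was left out; the cause was not tested. Under the block the limma adjusted p was 0.0566 for Nitab4.5_0001618g0270 in Y and 0.143 for Nitab4.5_0001618g0050 in KY. In the ribosome assembly list, the 1 higher gene in Y and the 1 lower in KY minus Y became 0 with a mean of at least 5, where fewer genes are tested. The 1 lower gene in Y became 0 there, without a filter and without KY replicate 1 and K326 replicate 3, and 0 to 1 when 1 library was left out; in KY the count ranged from 0 to 2. In the formaldehyde and glyoxal list, 1 gene was called lower in Y when only the 2 materials compared were fitted, and 0 to 1 when 1 library was left out (for KY minus Y, 0 to 1 higher). Over all genes, the 325, 129 and 212 calls in Y, KY and KY minus Y became 211, 85 and 134 with a replicate block and, where the filter asked for a mean of 5, 156, 60 and 127. Without KY replicate 1 the KY calls were 646. Leaving out any other single library gave 69 to 111 in KY, and leaving out any 1 library 176 to 450 in Y and 112 to 307 for KY minus Y. The split in KY of 38 higher and 91 lower became 49 and 70 under median-of-ratios scaling. Same-numbered libraries did not deviate together (r from -0.17 to 0.18), and not every sample correlated best with its own number, so calls lost under the block are not read as weaker effects.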
